A study of Homo sapiens with 13 samples.

Results

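The genes described here are 10 core pluripotency genes of human embryonic stem cells: POU5F1, SOX2, NANOG, LIN28A, TDGF1, SALL4, DNMT3B, ZFP42, PRDM14 and L1TD1. For each, every peak of the 7 deposited ChIP-seq peak lists that lay within 10 kb of a given hg19 transcription start site was taken, which gave 73 of 136141 peaks. H1 (also WA01) is an established line of human embryonic stem cells. KO cells were the H1 line numbered 1-10, homozygous for a Cas9 deletion of ZNF263, a C2H2 zinc finger transcription factor, and were compared with wild-type (WT) H1. H3K4me3, H3K27ac and H3K27me3 were each mapped by 1 library in KO and 1 in WT cells, and a FLAG antibody mapped ZNF263 by 1 library in KO cells with ectopic FLAG-tagged ZNF263. Since 1 line and 1 library stood for each genotype, no genotype difference below has a replicate check or a test, and none can be told apart from a difference between these libraries. The FLAG list (22966 peaks) comes from cells that carry an added copy, so its peaks need not be sites of endogenous ZNF263. For the 2 libraries of endogenous ZNF263 from WT, separate peaks were not analysed here. The FLAG list is the file named in their labels, which do not say if it holds reads of theirs.

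Pluripotent cells hold themselves undifferentiated through a small network of transcription factors. OCT4 (the product of POU5F1) and SOX2 bind DNA together, often at a composite element, and with NANOG they activate their own genes and each other. Promoters of such active genes carry H3K4me3, and active promoters and enhancers carry H3K27ac. H3K27me3 is laid down by Polycomb repressive complex 2 and marks silent or poised genes; a promoter with H3K4me3 and H3K27me3 is called bivalent.

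The start sites of all 10 genes lay inside an H3K4me3 peak and inside an H3K27ac peak in KO cells, and equally in WT cells. This is the chromatin of active promoters, and the pluripotent label of the cells was not contradicted by it in either genotype, although no expression was measured here. A mark was counted at a gene when any of its peaks reached the 10 kb window. For H3K27ac the count was 10 of 10 genes in KO and in WT, where 46.6% (KO) and 49.8% (WT) of 20 kb windows centred on all 28660 WT H3K4me3 peaks held such a peak. H3K27me3 reached 1 gene in KO (SOX2) and 2 genes in WT (SOX2 and PRDM14), against 34.8% (KO) and 39.1% (WT) of those windows. FLAG peaks covered the start sites of 6 genes, namely SOX2, LIN28A, SALL4, DNMT3B, ZFP42 and PRDM14. POU5F1, NANOG, TDGF1 and L1TD1 had none within 10 kb. The FLAG peaks at SALL4 and ZFP42 were weak, and in the upper 50% of the FLAG list by score 4 genes had one.

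**Figure D1:**
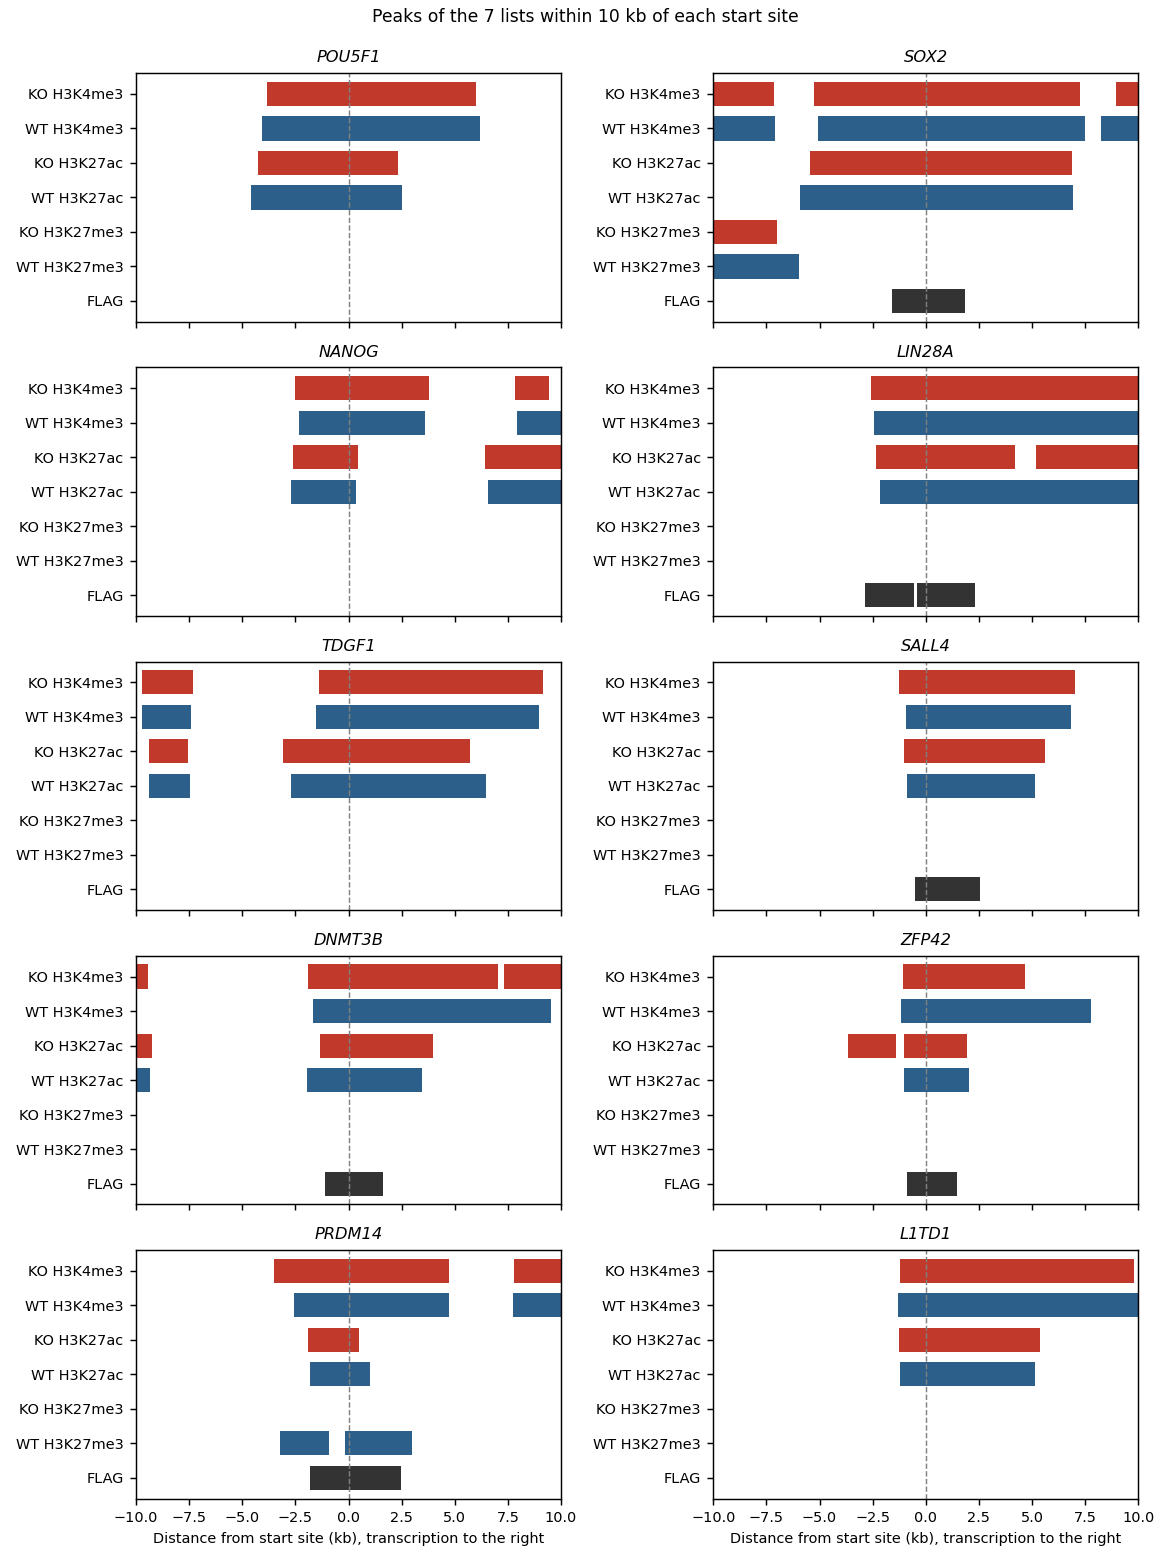
Peaks within 10 kb of the start sites of the 10 genes. The x axis gives the distance from the start site in kb, with transcription running to the right, and each bar is 1 peak (red KO, blue WT, black FLAG in KO cells with tagged ZNF263), drawn only as far as 10 kb. H3K4me3 and H3K27ac cover every start site in both genotypes, and the H3K27me3 bars at PRDM14 appear in WT only.

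No H3K4me3 peak near the 10 genes was exclusive to a genotype. KO cells had 17 H3K4me3 peaks within 10 kb and WT cells 16, and each overlapped a peak of the other genotype, where 7.30% of all KO peaks and 12.3% of all WT peaks of this mark had no such overlap. Of 16 KO H3K27ac peaks 1 was KO-only, at ZFP42, against 24.8% over the complete KO list. None of 13 WT H3K27ac peaks was WT-only, against 24.6%. A shared peak upstream of L1TD1 entered the window in KO only, at 9957 bp from the start site against 10346 bp in WT, just outside. The single KO H3K27me3 peak was shared, against 11.0% KO-only over the list. Of 3 WT H3K27me3 peaks 2 were WT-only, both at PRDM14, against 21.6%. Wide WT peaks of H3K4me3 and H3K27ac were seldom WT-only over the complete lists, and KO-only and H3K27me3 peaks were not compared by width. Of WT peaks at least as wide as the narrowest start-site peak of the 10 genes, 0.0746% of H3K4me3 and 2.45% of H3K27ac peaks were WT-only, a comparison chosen after seeing the data.

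The start-site H3K4me3 peaks were among the widest of their lists. Their widths ran from 5737 to 13257 bp in KO and from 5953 to 13725 bp in WT, where the medians of the complete lists were 2559 bp in KO and 2499 bp in WT. In KO 9 of 10, and in WT 10 of 10, lay in the widest 5% of their list. All 20 of these peaks had a score of 3100, and 41.9% of all KO and 42.9% of all WT H3K4me3 peaks had that score or more, so the score does not rank them. Most widths were nearly equal between genotypes. The median KO to WT width ratio over the 10 genes was 0.982, beside 0.989 over the 24423 pairs of H3K4me3 peaks that overlapped each other and no other peak. At any size, 6 of the 10 genes were narrower in KO for H3K4me3, where 54.7% of all pairs were. The 6 include DNMT3B, whose WT peak was split in KO, so it is not itself one of those pairs. Only ZFP42 was narrower in KO by more than 1.5-fold and none was wider, where 1.12% and 0.819% of all such pairs passed that fold in those directions. For H3K27ac the median ratio was 0.957 over the 10 genes and 1.02 over 12688 pairs. The start-site H3K27ac peak was narrower in KO at 8 genes and wider at 2, where 43.4% of all pairs were narrower. The 8 included differences as small as that at NANOG (3083 bp in KO, 3087 bp in WT). Covered H3K27ac within 10 kb was less in KO at 5 genes and more at 5. The start-site H3K27ac peak was narrower past 1.5-fold only at LIN28A, and 2.51% of all pairs were narrower and 3.87% wider past that fold. The LIN28A peak was split in KO, so it is not itself one of those pairs.

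**Figure D2:**
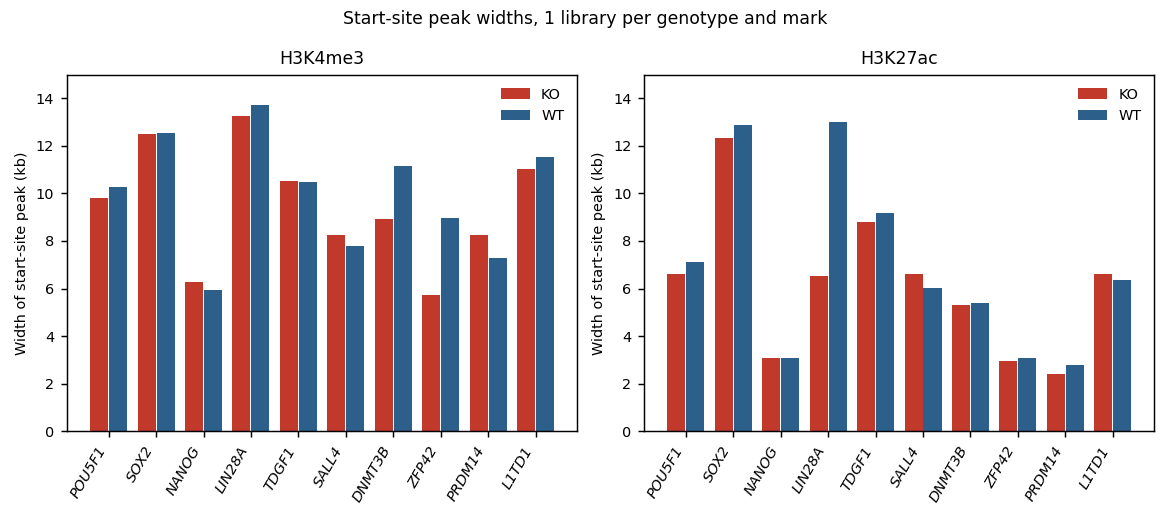
Width in kb of the peak over each start site, for H3K4me3 (left panel) and H3K27ac (right panel), with KO (red) beside WT (blue) and 1 library per bar. The pairs of bars are close except for H3K4me3 at ZFP42 (5737 bp in KO, 8979 bp in WT) and DNMT3B (8926 bp in KO, 11167 bp in WT) and H3K27ac at LIN28A (6517 bp in KO, 13018 bp in WT).

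The 3 central transcription factor genes kept their marked promoters. At POU5F1, which encodes OCT4, the start site is at chromosome 6, 31138451. Its H3K4me3 peak was 9798 bp wide in KO (31132475 to 31142272) and 10275 bp in WT (31132242 to 31142516). Bases in both peaks made up 95.4% of the bases in either, so the outlines were nearly the same. H3K27ac spanned 6596 bp in KO and 7136 bp in WT, and reached 4258 bp upstream of the start in KO and 4610 bp in WT. It extended less far into the gene than H3K4me3, 2337 bp in KO and 2525 bp in WT. The H3K27ac peak stood high in each list, with 98.2% of KO and 98.6% of WT peaks scoring lower. The nearest FLAG peak lay 57.9 kb away. Another pair of H3K4me3 peaks began just past the window, at 10252 bp in KO and 10034 bp in WT.

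SOX2, which encodes the HMG-box partner of OCT4, carried one of the longest marked stretches. Over its start site at chromosome 3, 181429712, H3K4me3 covered 12520 bp in KO and 12547 bp in WT. H3K27ac was as broad, at 12310 bp in KO and 12890 bp in WT, and at least 99.9% of the peaks in each H3K27ac list were narrower. A FLAG peak of 3420 bp (181428142 to 181431561, score 342) lay over the start site and wholly inside both marks. Its score exceeded 93.5% of FLAG peaks. Polycomb chromatin bordered this active stretch without touching it. H3K27me3 came within 7.01 kb upstream of the start in KO and 5.97 kb in WT, as a peak 3444 bp wide in KO and 4679 bp wide in WT. There it overlapped a separate H3K4me3 peak, 4560 bp wide in KO and 4747 bp in WT, so an upstream bivalent region was present in both genotypes. A downstream H3K4me3 peak began 8.97 kb from the start in KO (2264 bp wide) and 8.25 kb in WT (3278 bp).

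NANOG encodes a homeodomain factor of the network. Its promoter, with the start site at chromosome 12, 7941992, had the narrowest WT H3K4me3 peak of the 10, 6283 bp in KO and 5953 bp in WT. H3K27ac over the start site was shorter still, 3083 bp in KO and 3087 bp in WT, and ended 444 bp into the gene in KO and 365 bp in WT. The broader H3K27ac at this locus lay downstream, beginning 6.43 kb from the start in KO (5989 bp wide, score 1409) and 6.57 kb in WT (5445 bp, score 1313). A weak H3K4me3 peak sat within it in both genotypes, 1619 bp wide in KO and 2455 bp in WT. No H3K27me3 was found within 10 kb in either genotype, and the nearest FLAG peak, a narrow one of 877 bp, was 43.8 kb downstream. POU5F1 and NANOG both have near-identical pseudogene copies elsewhere in the genome, and the treatment of reads that match several places was not stated.

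Promoter sequence is shown for 2 genes with a FLAG peak over the start site and for NANOG because of its known OCT4-SOX2 element. RefSeq (GRCh38.p14) gave promoter windows for 5 of the 10 genes, and for 4 of these (SOX2, NANOG, ZFP42, L1TD1) the window sat at the start of the gene, while that of DNMT3B lay 17467 bp inside it and was not used. The 250 bases upstream of the start of SOX2 and ZFP42 (FLAG peak over the start site) and of NANOG (none) are shown 5′ to 3′ on the coding strand. Distances are counted from the RefSeq start, which was not matched to the hg19 start site used for peaks. Capitals mark GGGAGGA and GGAGGAGG on either strand, which overlap where they run together, G-rich words like those in published ZNF263 motifs. They also mark ATGCAAA, part of the octamer that OCT4 binds, in SOX2, and in NANOG the OCT4-SOX2 composite, searched as TTGCAT, any base, then ACAANG.
SOX2: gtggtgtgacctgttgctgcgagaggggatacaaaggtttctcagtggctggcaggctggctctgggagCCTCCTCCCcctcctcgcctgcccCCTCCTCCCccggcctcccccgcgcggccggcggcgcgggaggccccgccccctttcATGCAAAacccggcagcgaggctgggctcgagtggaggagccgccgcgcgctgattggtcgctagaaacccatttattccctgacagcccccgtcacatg
ZFP42: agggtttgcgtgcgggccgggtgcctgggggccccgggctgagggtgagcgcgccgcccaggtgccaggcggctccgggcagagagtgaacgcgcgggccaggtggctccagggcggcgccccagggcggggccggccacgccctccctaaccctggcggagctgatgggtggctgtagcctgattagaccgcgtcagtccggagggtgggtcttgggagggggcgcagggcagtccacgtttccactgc
NANOG: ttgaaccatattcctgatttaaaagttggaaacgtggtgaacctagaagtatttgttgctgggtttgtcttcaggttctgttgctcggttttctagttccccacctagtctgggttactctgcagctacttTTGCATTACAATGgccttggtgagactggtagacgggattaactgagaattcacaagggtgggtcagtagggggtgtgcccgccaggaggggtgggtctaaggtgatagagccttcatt

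The SOX2 window held GGGAGGA at 2 places and GGAGGAGG at 2 places, as 2 runs of CCTCCTCCC on the shown strand, and ATGCAAA began 100 bases before the start. The ZFP42 sequence shown held neither G-rich word, but both began within the following 50 bases of the window, at 23 and 24 bases past the start. NANOG held neither word in its window of 300 bases. Its single composite match began 119 bases before the start and included a SOX-type word (ACAATG). The NANOG window also held ATGCAAA, beginning 120 bases before the start on the strand opposite to the one shown. That match overlaps the composite and is not marked separately. The L1TD1 window, at a gene with no FLAG peak, held GGGAGGA at 2 places and GGAGGAGG at 1. Another SOX-type word, ACAAAG, was found at 1 place in each of the SOX2, ZFP42 and L1TD1 windows. Searched on both strands over all 35116 promoter windows, GGGAGGA was in 18.1%, GGAGGAGG in 10.9%, ATGCAAA in 4.46% and the composite in 0.0199%. The SOX-type words were in 10.8% (ACAATG) and 16.1% (ACAAAG) of those windows. These matches describe the letters of the windows and are not sites of binding.

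SALL4, ZFP42 and PRDM14 encode further transcription factors. SALL4, a zinc finger factor of the early embryo, was slightly broader in KO for both active marks. Over its start site at chromosome 20, 50419048, H3K4me3 covered 8271 bp in KO and 7778 bp in WT, and H3K27ac 6622 bp in KO and 6026 bp in WT. A weak FLAG peak (50416480 to 50419557, score 63.5) lay over the start site, with only 26.7% of FLAG peaks scoring lower.

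ZFP42, also called REX1 and a classic marker of undifferentiated stem cells, had the largest H3K4me3 width difference of the 10 genes. Its peak was 5737 bp wide in KO (chromosome 4, 188915850 to 188921586) and 8979 bp in WT (188915735 to 188924713). The difference lay at the end inside the gene, which was 3127 bp nearer the start site (188916925) in KO, while the upstream end moved by 115 bp. No further KO H3K4me3 peak covered that stretch within the window. H3K27ac over the start site was alike in width, at 2951 bp in KO and 3097 bp in WT. A KO-only H3K27ac peak of 2239 bp lay upstream (188913270 to 188915508), 1.42 kb from the start. It was weak, with 25.1% of KO H3K27ac peaks scoring lower, and only 375 bp separated it from the WT start-site peak. A FLAG peak of low score (66.1) lay over the start site (188916059 to 188918375) but did not reach the KO-only peak or the stretch without KO H3K4me3.

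PRDM14, a PR-domain factor of pluripotent and germ cells, was the only gene of the 10 with H3K27me3 over its start site, and that in WT only. At its start site, chromosome 8, 70983562, WT H3K27me3 formed a peak of 3138 bp (70980582 to 70983719) and another of 2284 bp just upstream (70984497 to 70986780), and KO had no peak at either. Both were weak in the WT list, with 14.6% and 33.9% of its peaks scoring lower, and had scores of 59.6 and 125 where the lowest in that list was 40. H3K4me3 was present in both, 8252 bp wide in KO and 7275 bp in WT. H3K27ac was 2399 bp wide in KO (score 45.0) and 2788 bp in WT (score 177). These widths exceeded 62.4% of the KO list and 77.4% of the WT list, and the scores 7.97% of the KO list and 62.5% of the WT list. The WT promoter thus carried all 3 marks and the KO promoter H3K4me3 and H3K27ac. Over the whole data set, 9138 WT H3K4me3 peaks overlapped WT H3K27me3 and still had H3K4me3 in KO, and 13.5% of them met no KO H3K27me3 peak. Among the 1338 that also overlapped WT H3K27ac the share was 31.5%, so a difference of this kind was not rare among such peaks. The FLAG peak there was wide (4292 bp, 70981109 to 70985400, score 283), and 81.9% of its length lay within the WT H3K27me3 peaks.

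LIN28A and L1TD1 encode RNA-binding proteins, LIN28A being the inhibitor of let-7 microRNA maturation. LIN28A carried the widest H3K4me3 peak of the 10 genes in both genotypes, 13257 bp in KO and 13725 bp in WT, reaching 10685 bp past the start site (chromosome 1, 26737269) in KO and 11289 bp in WT. H3K27ac formed a single peak of 13018 bp in WT (26735113 to 26748130). In KO the same stretch held a peak of 6517 bp (26734931 to 26741447) and another of 5884 bp (26742454 to 26748337), with a gap of 1006 bp between them. Among all WT H3K27ac peaks 1.01% met more than 1 KO peak. Covered H3K27ac within 10 kb was 11333 bp in KO and 12157 bp in WT, so the split removed little of it, and merging peaks up to 3 kb apart, a setting chosen after seeing the data, ended the 1.5-fold call. A FLAG peak lay over the start site (26736843 to 26739587, score 180) and another 0.56 kb upstream (26734427 to 26736711, score 73.9). The gap in KO H3K27ac was not under either.

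L1TD1, an RNA-binding protein derived from a LINE-1 element, was nearly the same in outline in both genotypes. H3K4me3 over its start site (chromosome 1, 62660474) was 11018 bp wide in KO and 11542 bp in WT, and H3K27ac 6616 bp in KO and 6355 bp in WT. Bases in both genotypes made up 95.5% of the H3K4me3 and 96.1% of the H3K27ac stretch. The nearest FLAG peak lay 54.8 kb away.

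TDGF1 encodes CRIPTO, a co-receptor for the TGF-beta ligand NODAL. Its H3K4me3 peak over the start site (chromosome 3, 46616045) was 10509 bp wide in KO and 10495 bp in WT, a difference of 14 bp. H3K27ac was 8806 bp wide in KO and 9179 bp in WT. A smaller region further upstream carried both marks in both genotypes, with H3K4me3 over 2411 bp (KO) and 2310 bp (WT) and weak H3K27ac over 1802 bp (KO) and 1917 bp (WT). The nearest FLAG peak lay 54.4 kb away.

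DNMT3B encodes a de novo DNA methyltransferase that is abundant in embryonic stem cells. Its WT H3K4me3 peak of 11167 bp (chromosome 20, 31348538 to 31359704, start site 31350191) met a KO peak of 8926 bp (31348296 to 31357221) and another of 3054 bp (31357504 to 31360557), separated by only 282 bp. Such a split affected 0.921% of all WT H3K4me3 peaks. Covered H3K4me3 within 10 kb was not smaller in KO, at 12177 bp against 11203 bp in WT. Part of that excess comes from a separate upstream H3K4me3 peak cut by the window edge. Its near end lay 9438 bp from the start in KO and 9965 bp in WT. H3K27ac over the start site was 5296 bp wide in KO and 5376 bp in WT, and stood lower in its list than at most of the genes, with 50.9% of KO and 80.1% of WT peaks scoring lower. Stronger H3K27ac lay upstream, 4822 bp wide in KO (score 1266) and 4793 bp in WT (score 1086), with its near end 9.24 kb from the start in KO and 9.34 kb in WT. The FLAG peak over the start site (31349069 to 31351821) had a score of 292, which exceeded 91.0% of FLAG peaks.

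**Figure D3:**
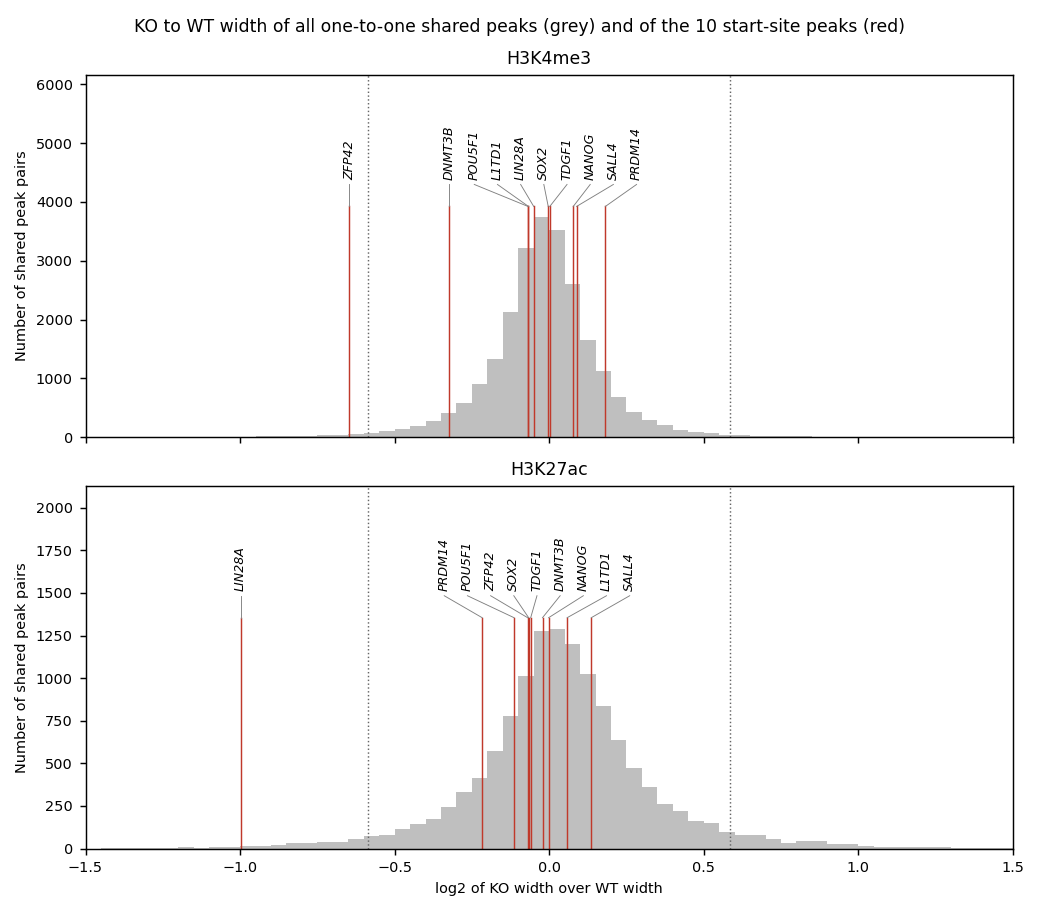
Log2 of the KO to WT width for all one-to-one shared peaks (grey bars, number of pairs) and for the 10 start-site peaks (red lines), with dotted lines at 1.5-fold. 8 H3K4me3 and 19 H3K27ac pairs lie beyond the axis. ZFP42 for H3K4me3 (ratio 0.639) and LIN28A for H3K27ac (ratio 0.501) lie outside the dotted lines, and the other genes lie between them. DNMT3B (H3K4me3) and LIN28A (H3K27ac) met 2 KO peaks each, and only the one over the start site is used.

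The H3K27ac score varied widely among the 10 genes. In KO the start-site H3K27ac peaks of 6 genes had scores among the highest 5% of the list, and so did 6 in WT. PRDM14 and DNMT3B had the lowest scores in both genotypes. At NANOG 92.3% of KO and 84.3% of WT peaks scored lower, and at ZFP42 83.1% of KO and 94.4% of WT peaks did. Each score belongs to its own list, and no change between genotypes is read from it.

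The last comparison asked whether FLAG peaks were frequent at these genes. The start-site H3K4me3 peaks of 6 of 10 genes overlapped a FLAG peak in WT outline, against 39.3% of all 28660 WT H3K4me3 peaks. Among the 1341 WT H3K4me3 peaks at least as wide as the narrowest of the 10 (5953 bp) the share was 72.9%, with a 95% Wilson interval of 70.5 to 75.2, a comparison chosen after seeing the data. Within 10 kb windows the count was also 6 of 10, against 50.7% of windows centred on WT H3K4me3 peaks. The overlap with FLAG rose with width over the complete list, and at their width the 10 genes were not above it. Of the 7 FLAG peaks 6 lay wholly inside H3K4me3 of both genotypes, and the upstream one at LIN28A lay 88.1% inside in KO and 82.2% in WT.

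**Figure D4:**
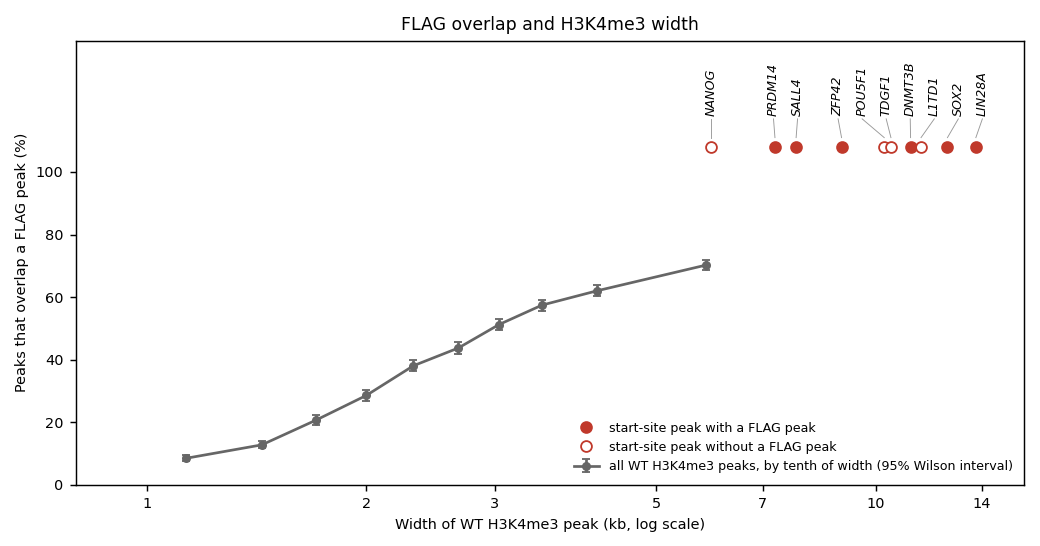
Share of WT H3K4me3 peaks that overlap a FLAG peak (y axis, percent) by width (x axis, kb, log scale), in 10 classes of 2866 peaks with 95% Wilson intervals. Circles above the curve show the 10 start-site peaks at their WT width, filled where a FLAG peak overlaps. The share runs from 8.37% in the narrowest class to 70.2% in the widest, and 6 of the 10 circles are filled.

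Genes with and without a FLAG peak at the start site were set side by side for covered length within 10 kb. At the 6 genes with one, H3K4me3 covered 65.7 kb in KO and 67.1 kb in WT, and H3K27ac 43.9 kb in KO and 43.0 kb in WT. At the 4 without, H3K4me3 covered 41.6 kb in KO and 42.4 kb in WT, and H3K27ac 30.5 kb in KO and 31.1 kb in WT. For H3K27ac 3 of the 6 genes with a FLAG peak and 2 of the 4 without had less in KO. For H3K4me3 these numbers were 2 of 6 and 3 of 4. The individual differences with the largest size were at ZFP42 and PRDM14. At ZFP42, H3K4me3 covered 5737 bp in KO and 8979 bp in WT, and H3K27ac 5190 bp in KO and 3097 bp in WT. At PRDM14, H3K27me3 covered 0 bp in KO and 5422 bp in WT. Both genes were among the 6 of 10 with a FLAG peak. The 4 genes without one had no H3K27me3 within 10 kb in either genotype, so a difference in that mark could not occur there. With 10 genes and 1 library per genotype, no difference between these groups of genes was tested.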

How the data were processed

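ChIP-seq was mapped in 13 samples of 12 groups, and the 7 peak lists of the 6 histone libraries and the FLAG library were used. Bowtie2, Picard and hg19 are named in the submitters' processing notes without versions. MACS opens every peak name; the caller's version, the inputs and any pooling were not given in the sources used here. Deposited lists hold positions and the authors' peak score, of a scale not stated, which was used only within its list. The lists hold no read counts, so depth is unknown and no floor was set. Intervals cover the counting of peaks only.

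Start sites were given with the gene list. Strand came from the RefSeq promoter table for 5 genes and from general annotation for the others. No hg19 annotation was used here, so other pluripotency genes were not analysed. The members and lists were chosen with earlier results of these data known. All 10 genes were named, with every FLAG peak, start-site peak and exclusive peak within 10 kb. Peaks that overlapped by at least 1 bp were shared. Shares have Wilson intervals (scipy 1.17.1, python 3.11.15; plots in matplotlib 3.10.9). Tested on simulated data, 17537 peaks with WT H3K27ac widths, the steps recovered 100% of exclusive and of widened peaks, and 0 of 500 windows were miscounted. The simulated peaks stood well apart, with partners of equal or greater width. Split peaks, narrowed peaks and close neighbours were therefore not tried, and the check covers the counting steps only. Alternatives were windows of 5, 20 and 50 kb, the upper 50% by score, lists of equal length, an overlap of 50%, a gap of 1 kb and merging within 3 kb.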

Additional observations from a re-analysis of the deposited data

How the results depend on the processing

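Alternatives gave 138 values for 30 results; 91 stayed within 1.5 times the main value, 44 moved further and 3 turned in sign. Counts of genes with H3K4me3, H3K27ac or FLAG peaks stayed within that range under each alternative run, with FLAG at the limit in the upper 50% by score (4 genes). A window of another size changes counts and lengths by construction. At 5 kb there were 10 H3K4me3 peaks in KO and 10 in WT, covered WT H3K4me3 of 71.4 kb, no KO H3K27me3 (0 genes, 0 peaks, 0.0 kb), and WT H3K27me3 at 1 gene over 5.4 kb. At 20 kb, H3K4me3 peaks numbered 27 in KO and 26 in WT, with 1 KO-only and 1 WT-only, and exclusive H3K27ac peaks 4 in KO and 4 in WT. H3K27me3 peaks numbered 3 in KO and 5 in WT there, over 13.2 kb in KO and 21.7 kb in WT. At 50 kb H3K4me3 peaks numbered 36 in KO and 36 in WT, H3K27ac 25 in KO and 23 in WT, and H3K27me3 6 in KO (3 genes) and 9 in WT. The upper 50% by score left 10 H3K4me3 peaks in KO and 10 in WT, and KO H3K27ac at 9 genes. There were 0 KO-only H3K27ac peaks and 1 WT-only, the start-site peak of PRDM14, whose KO partner fell below the cut. No KO H3K27me3 peak was left (0 genes, 0.0 kb). The 1 WT H3K27me3 peak left was at SOX2, over 4.0 kb. It counted as WT-only because its KO partner fell below the cut. The WT H3K27me3 peaks at PRDM14 were below the cut as well. Counting peaks up to 1 kb apart as shared left 0 KO-only H3K27ac peaks, since 375 bp separate the one at ZFP42 from a WT peak. Merging within 3 kb left 0 genes with H3K27ac narrower past 1.5-fold. The summed KO minus WT lengths were small and unstable. For H3K4me3 the value was -2.3 kb, and it turned to 1.0 kb at 5 kb and was -4.0 kb at 20 kb, -4.3 kb in the upper 50% and -1.5 kb merged. For H3K27ac it was 0.3 kb, and it turned to -3.7 kb at 20 kb and -4.2 kb in the upper 50%, and was 1.0 kb at 5 kb and 1.7 kb merged. For H3K27me3 it was -6.5 kb, and -4.0 kb in the upper 50%, where it came from SOX2 alone. Apart from such effects of construction, the cause was not tested. No paired analysis was possible because each genotype has 1 library per mark. Depth is unknown, and weak peaks near the calling threshold, such as those at PRDM14 and ZFP42, have no replicate.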

Other observations

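Between 10 and 50 kb from the start sites, exclusive H3K27ac peaks were found at 8 of the 10 genes. Around the centres of all 28660 WT H3K4me3 peaks the share was 28.7%, and around those of the 1341 at least 5953 bp wide 37.7%, a comparison chosen after seeing the data and without a test. The count by peak took in all H3K27ac peaks within 50 kb of the 10 start sites, also those within 10 kb. Of these, 7 of 25 KO (28.0%) and 6 of 23 WT (26.1%) were exclusive, against 24.8% (KO) and 24.6% (WT) of the complete lists. Within 10 kb only 1 of 16 KO and 0 of 13 WT peaks were exclusive. The shares between 10 and 50 kb alone were therefore higher than those over the whole 50 kb. Peaks are placed here by distance from the 10 start sites only, and whether they belong to neighbouring genes was not tested. At POU5F1 a WT-only H3K27ac peak of 1742 bp lay 11.7 kb downstream (chromosome 6, 31125032 to 31126773, score 59.5) and a WT-only H3K4me3 peak 26.7 kb downstream. Exclusive H3K4me3 also lay downstream of L1TD1 (KO-only, 2828 bp) and of LIN28A (WT-only, 1424 bp). At SOX2 a KO-only H3K27ac peak lay 18.1 kb and a WT-only one 44.2 kb downstream. A WT-only H3K27ac peak lay 16.7 kb downstream of the DNMT3B start site (chromosome 20, 31366891 to 31370055, 3165 bp), with 58.5% of WT H3K27ac peaks scoring lower. It overlapped a FLAG peak of 3946 bp with a score of 269 (31365486 to 31369431). DNMT3B also had a KO-only H3K27ac peak 33.2 kb and another WT-only one 23.3 kb downstream. At SALL4 a KO-only H3K27ac peak of 1508 bp, 34.8 kb downstream, overlapped a FLAG peak with a score of 166. KO-only H3K27ac peaks also lay 11.2 kb downstream of TDGF1 and 35.5 kb downstream of PRDM14. LIN28A had a KO-only H3K27ac peak 16.3 kb and a WT-only one 13.3 kb downstream, and L1TD1 a WT-only one 16.9 kb upstream.

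Polycomb chromatin around SOX2 extended beyond the upstream region. Within 50 kb SOX2 had 4 H3K27me3 peaks in KO and 4 in WT, all shared. In KO they were 3978, 3444, 5802 and 2454 bp wide, and in WT 4905, 4679, 6685 and 4521 bp. Each was narrower in KO, with 1 library per genotype, where 45.6% of the 8086 one-to-one pairs of H3K27me3 peaks were narrower in KO. LIN28A had a shared peak 47.8 kb (KO) and 47.7 kb (WT) upstream, 4673 bp wide in KO and 4449 bp in WT, and a WT-only peak 45.0 kb upstream. POU5F1, NANOG, TDGF1, SALL4, DNMT3B, ZFP42 and L1TD1 had no H3K27me3 peak within 50 kb in either genotype. At PRDM14 a shared H3K27me3 peak lay 36.9 kb downstream, 4225 bp wide in KO and 3510 bp in WT.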
